A study of Rattus norvegicus with 6 samples.

Results

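Ubiquitin-specific proteases are the largest family of deubiquitinases. They were taken here as every gene whose symbol is Usp followed by a digit, which gave 50 of the 21170 genes listed, 1 of which, Usp6nl, carries the name but is a GTPase-activating protein of Rab proteins and not a protease. Single-cell RNA sequencing of testicular tissue from SD rats, an outbred laboratory strain, gave their transcript counts. A control library was made from each of 3 normal rats, and a stressed library from each of 3 rats that had gone through a model of psychological stress by frightening sound. The labels give neither the age of the animals nor the length of the exposure, and the titles number the rats within each group. The 6 libraries held 11744 cells, with 2 of 11742 cell barcodes found in more than 1 library.

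Ubiquitin is a small protein that is attached to other proteins to mark them for the proteasome, to change their sorting, or to alter chromatin. A ubiquitin-specific protease cuts it off again, and each member has its own partners, places in the cell and substrates. Spermatogenesis runs through meiosis in spermatocytes and then through round and elongating spermatids, in which histones are ubiquitinated and replaced, the acrosome is built and most of the cytoplasm is shed.

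Cells were grouped without any Usp gene, and the groups were named from marker genes. Spermatocyte-like cells numbered 1352, round spermatid-like cells 4184 and elongating spermatid-like cells 5964. Stressed library 1 was the smallest, with 409 cells and 16756543 counts, against 1801 to 2506 cells and 73650164 to 114984746 counts in the other 5. Its spermatocyte-like sum rested on 24 cells. That library also carried RNA of macrophage markers: all 13 markers had a count, and they summed to 581.6 CPM (a gene's counts scaled to a common total) over all its cells, against 43.2 to 92.3 CPM in the other libraries. A cluster led by Apoe, Fos and Cd74 held 222 cells, of which 182 were from stressed library 1. Its best class by the naming rule was elongating spermatid, with 14 supporting markers. It stayed unnamed and outside the 3 classes because 4 of its 10 leading genes were macrophage markers. Stressed library 1 had 84 elongating spermatid-like cells without this cluster and 266 with it, and 0 members were called for stress in that class either way. Only 22 cells were spermatogonia-like, so the values below start at meiosis.

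Of the 50 members, 43 passed the filter on low counts and were tested between the stages, with the counts of all cells of a class summed per library. Relative to the bulk of genes, 17 of the 43 were higher and 13 lower in round spermatid-like than in spermatocyte-like cells (edgeR's quasi-likelihood test with Benjamini-Hochberg adjustment over all 12505 genes tested). Of all genes tested, 65.3% were called in that comparison, 38.5% higher and 26.8% lower, so the members' 30 of 43 lay near the background. In elongating against round spermatid-like cells, 11 members rose and 15 fell, where 59.4% of all genes were called, 24.9% higher and 34.5% lower. Over the whole span from spermatocyte-like to elongating cells 18 rose and 19 fell, with 78.5% of all genes called, 38.8% higher and 39.6% lower. The median log2 change of the 43 members was -0.06, -0.59 and -0.39 in these comparisons, beside 0.17, -0.28 and -0.05 over all genes tested.

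These counts use TMM scaling, which sets the bulk of genes level between classes. Late spermatids are known to devote a large share of their counts to a few genes: the TMM factors were 0.407 to 0.690 in elongating spermatid-like, 1.05 to 1.27 in round spermatid-like and 1.67 to 2.35 in spermatocyte-like sums. Scaled to library totals only, which measures a gene's share of all counts, the median of all genes was -0.55, -1.60 and -2.07. The members then split into 16 higher and 23 lower from spermatocyte to round, 2 higher and 30 lower from round to elongating, and 10 higher and 29 lower from spermatocyte to elongating. Over all genes 30.4% were then called higher and 43.9% lower in the first comparison, 8.52% and 63.7% in the second, and 21.7% and 63.2% in the third. All 15 members lower in elongating than in round spermatid-like cells with TMM were also lower by library totals, while 2 of the 11 higher ones, Usp12 and Usp44, were called higher with both. Every direction below is relative to the bulk of genes unless library totals are named.

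**Figure D1:**
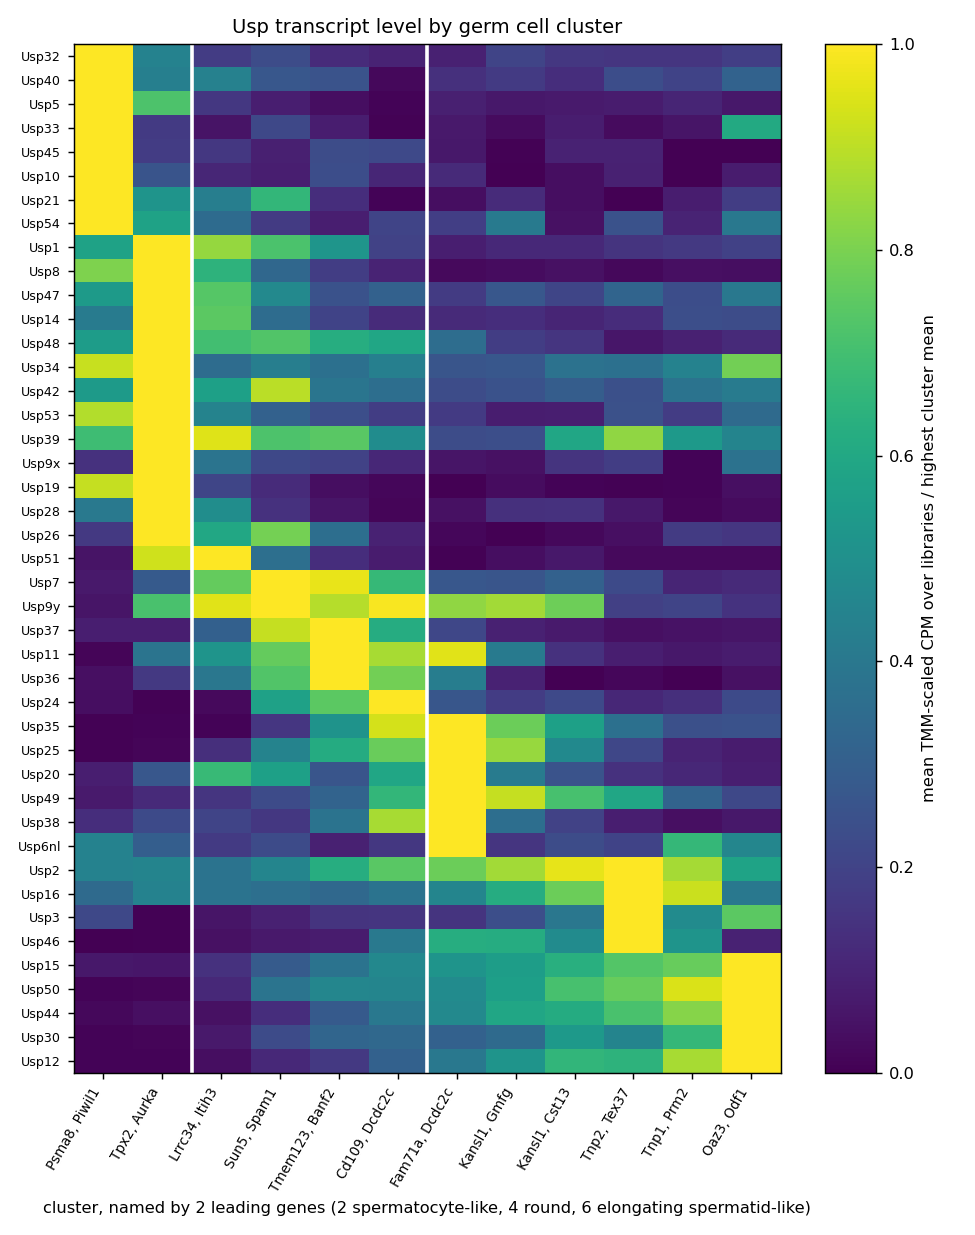
Heat map of 43 Usp members with at least 100 counts within the clusters shown (rows) in 12 germ cell clusters (columns, each named by 2 leading genes and ordered by known markers). Colour is the mean TMM-scaled CPM over the libraries with at least 20 cells, divided by the member's highest cluster mean, and white lines part the 3 classes. The highest cluster was spermatocyte-like for 21 members, round spermatid-like for 7 and elongating spermatid-like for 15. By library totals the split was 25, 12 and 6, and 33 of 43 members kept their class. The split over all genes was not counted.

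The members were highest at different points of the series of clusters, as the heat map by cluster shows. Of the 43 with at least 100 counts within the 12 clusters, 8 were highest in the cluster led by Psma8 and Piwil1, which are genes of mid-meiosis, and 13 in the cluster led by Tpx2 and Aurka, genes of the meiotic divisions. In the 6 elongating clusters, 6 members were highest in the first, led by Fam71a, and 5 in the last, led by Oaz3 and Odf1. By library totals no member was highest in that last cluster and 13 were in the first spermatocyte-like one. The share of all genes that were highest in each cluster was not counted, so these numbers have no background beside them.

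The largest rises from spermatocyte-like to round spermatid-like cells were those of Usp35, Usp25, Usp50, Usp24 and Usp30. Usp35 lay at 4.097, 1.49 and 20.9 CPM in spermatocyte-like cells of control libraries 1 to 3 and at 0.986, 10.3 and 9.56 in stressed libraries 1 to 3. In round spermatid-like cells of the same libraries it lay at 327, 320.1 and 427 and at 532, 416 and 391. The classes did not overlap, and all 6 libraries rose, by 5.85 ± 0.39 on the log2 scale (SE, adjusted p = 4.4e-10 in edgeR). Usp35 rose again to 792 ± 154 CPM (SD, n = 6) in elongating spermatid-like cells, by 0.95 ± 0.31. That second rise depended on the scaling, since by library totals the change was -0.33.

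Usp25, a member known from immune signalling and a close relative of Usp28, rose at the same step. Its level was 4.799, 3.07 and 5.99 CPM in the control and 1.48, 10.03 and 6.06 CPM in the stressed spermatocyte-like sums. In round spermatid-like cells it was 228, 273 and 177 and 449, 316 and 260.1 CPM. The libraries of the classes were far apart, with a log2 change of 5.61 ± 0.29 (SE, adjusted p = 1.5e-11 in edgeR), and 4.89 by library totals. It did not pass the test between round and elongating spermatid-like cells (log2 change 0.40 ± 0.23, adjusted p = 0.141 in edgeR). Within the elongating class its cluster means ran from 469 CPM in the first cluster down to 35.9 CPM in the last. Usp28 went the other way, with 2.74–7.63 CPM in spermatocyte-like and 0–2.49 CPM in round spermatid-like sums (log2 change -2.49 ± 0.74, adjusted p = 0.00709 in edgeR).

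Usp50 and Usp8 are immediate neighbours on chromosome 3 in RefSeq's GRCr8 annotation, and their transcripts moved in opposite directions. Usp50 rose from 6.61, 1.84 and 7.52 CPM (control) and 4.93, 11.4 and 9.09 CPM (stressed) in spermatocyte-like cells to 223, 216 and 318 and 177, 253 and 307 CPM in round spermatid-like cells. Usp8, which acts on cargo at endosomes, fell over the same step from 202, 189.5 and 179 and 135, 203 and 194 CPM to 92.8, 71.8 and 76.2 and 52.1, 72.1 and 71.5 CPM. Neither gene's libraries overlapped between the classes. The log2 changes were 5.24 ± 0.24 for Usp50 and -1.34 ± 0.16 for Usp8, with edgeR's adjusted p at 4.1e-12 and 6.0e-07. Usp8 fell further, to 2.74–11.5 CPM in elongating spermatid-like cells (log2 change -3.19 ± 0.17). Usp50 lay at 398–749.6 CPM there and was called higher by 1.18 ± 0.19, a call that was lost by library totals (-0.12, adjusted p = 0.597 in edgeR).

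For 4 members, chosen after their values were seen, the 150 bases upstream of the start site are shown from RefSeq's promoter table on GRCr8, because they moved in both directions: Usp25 and Usp35 rose at the entry to the round spermatid classes, and Usp8 and Usp5 fell. Each runs 5′ to 3′ on the gene's strand, and capitals mark matches on either strand to a GC box (GGGCGG, or CCGCCC on the other strand) or a CCAAT box (CCAAT, or ATTGG). The positions are chr11:29090503-29090652 on the plus strand for Usp25, chr1:161061115-161061264 on the minus strand for Usp35, chr3:134415376-134415525 on the plus strand for Usp8 and chr4:159320957-159321106 on the minus strand for Usp5.
Usp25: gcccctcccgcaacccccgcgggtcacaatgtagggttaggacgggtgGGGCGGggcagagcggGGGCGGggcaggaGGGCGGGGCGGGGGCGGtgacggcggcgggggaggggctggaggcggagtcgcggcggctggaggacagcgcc
Usp35: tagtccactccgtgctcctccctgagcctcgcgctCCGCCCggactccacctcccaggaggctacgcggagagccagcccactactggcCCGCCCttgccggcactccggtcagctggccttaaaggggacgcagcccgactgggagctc
Usp8: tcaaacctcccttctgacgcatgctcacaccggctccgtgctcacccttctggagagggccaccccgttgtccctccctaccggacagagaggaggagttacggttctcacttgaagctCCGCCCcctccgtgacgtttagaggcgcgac
Usp5: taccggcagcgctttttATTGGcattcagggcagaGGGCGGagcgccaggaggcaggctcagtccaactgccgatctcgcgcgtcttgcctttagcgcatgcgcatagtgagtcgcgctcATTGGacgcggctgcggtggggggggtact

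The stretch of Usp25 holds 5 GC boxes, that of Usp35 holds 2 and that of Usp8 holds 1, while that of Usp5 holds 1 GC box between 2 CCAAT boxes. Over 250 upstream bases, a GC box was found in 27 of the 41 Usp members with an entry, 65.9%, and in 32.4% of all 27457 promoters of the same length. Of the 17 members that rose from spermatocyte-like to round spermatid-like cells, 12 had an entry, and 7 of these held a GC box. Of the 13 that fell, 12 had an entry, and 9 of these held one. The cAMP response element TGACGTCA, sought because factors of spermatids are known to bind it, was in none of the 41 and in 1.70% of all promoters. A CCAAT box was in 10 of the 41 members and in 34.3% of all promoters, with 4 of the 12 rising and 1 of the 12 falling members, Usp5 itself. A match is a match of letters and no measured binding.

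The falling members were led by Usp5 and Usp19. Usp5, which takes apart free ubiquitin chains, lay at 7.73, 9.82 and 7.85 CPM in the control and 6.903, 4.98 and 3.66 CPM in the stressed spermatocyte-like sums, and at 1.34, 1.198 and 0.667 and 0.223, 0.421 and 0.507 CPM in round spermatid-like cells. The classes did not overlap in any library (log2 change -3.27 ± 0.46, SE, adjusted p = 6.9e-06 in edgeR). Usp14, which sits on the proteasome and trims chains there, fell in both steps, from 68.7 ± 19.1 to 37.7 ± 7.72 and 17.9 ± 6.08 CPM (SD, n = 6). Its log2 changes were -0.87 ± 0.22 and -1.11 ± 0.22. Of the proteasome and free-chain group of 3, both tested members were thus lower in round than in spermatocyte-like cells, where 26.8% of all genes were called lower. The last, Usp13, had 10 counts in all.

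**Figure D2:**
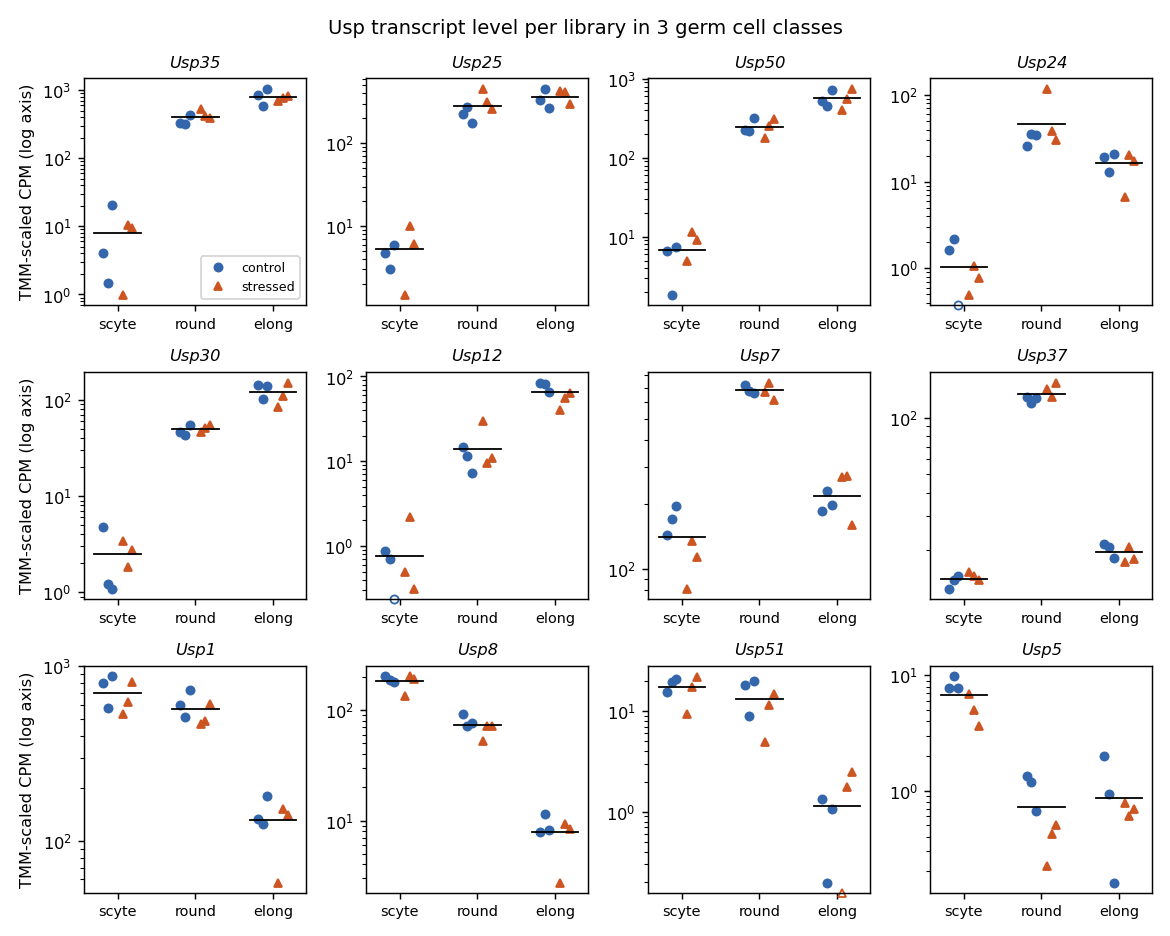
TMM-scaled CPM (log axis, one scale per panel) of 12 Usp members in spermatocyte-like (scyte), round and elongating spermatid-like (elong) cells. Each point is 1 library (circles control, triangles stressed), bars are means over 6 libraries, and open symbols on the lower edge are libraries at 0. Usp35, Usp25, Usp50, Usp24, Usp30 and Usp12 step up from spermatocyte-like to round spermatid-like cells, Usp7 and Usp37 are highest in the middle class, and Usp1, Usp8 and Usp51 are lowest in the last. By library totals the second step of Usp35, Usp50 and Usp30 turns to slightly negative.

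The group of members that act on chromatin, DNA damage and the cell cycle was the largest, with 16 members in the tables and 14 tested. From spermatocyte-like to round spermatid-like cells 6 of the 14 were higher and 1 lower, and from round to elongating 4 were higher and 9 lower. Over all genes 38.5% were called higher and 26.8% lower in the first comparison, and 24.9% and 34.5% in the second. By library totals the 6 and the 9 stayed called, while of the 4 only Usp44 did. Usp7, which removes ubiquitin from the p53 ligase MDM2 and from p53, had 80.9–197 CPM in spermatocyte-like, 615–739.9 in round and 159.9–270.2 in elongating spermatid-like sums, so it rose and fell back. Its log2 changes were 2.29 ± 0.18 and -1.64 ± 0.17, with adjusted p at 2.7e-09 and 2.1e-07 in edgeR. Usp37, a cell cycle member that acts on cyclin A, also rose and fell back: 12.4–15.3, 119–153 and 17.2–21.5 CPM over the 6 libraries. It rose by 3.25 ± 0.15 and its second change was -2.78 ± 0.15 on the log2 scale. Both peaked in round clusters, Usp7 in that led by Sun5 and Spam1 (612 CPM) and Usp37 in that led by Tmem123 (142 CPM).

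Usp1, which deubiquitinates the DNA repair proteins FANCD2 and PCNA, was at 529.6–876 CPM in spermatocyte-like and 465–734 CPM in round spermatid-like cells, which overlapped. In elongating spermatid-like cells it lay at 133, 125 and 180.3 CPM in the control and 57.6, 151 and 140.1 CPM in the stressed libraries, all under the lowest value of the round class. That fall measured -2.15 ± 0.15 on the log2 scale (adjusted p = 9.9e-10 in edgeR). Usp36, a nucleolar member, rose and then fell at low levels: its means were 0.275, 2.38 and 0.435 CPM. Usp21, a protease of histone H2A, changed by -2.16 ± 0.80 on the log2 scale from round to elongating cells, with 26 counts in the elongating class. Its call was lost without control library 2 (adjusted p = 0.0812 in edgeR) and without stressed library 1 (adjusted p = 0.0604).

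Usp44 and Usp49, which act on histone H2B, and Usp3 and Usp16, which act on H2A, were called higher in elongating than in round spermatid-like cells. Usp44 went from 114, 97.6 and 165 CPM (control) and 85.8, 101 and 133 CPM (stressed) in round cells to 491, 292 and 752 and 269.9, 349.8 and 528 CPM in elongating cells, with no overlap. Its change was 1.88 ± 0.14 on the log2 scale with TMM and 0.59 by library totals, called with both (adjusted p = 2.2e-09 and 6.1e-04 in edgeR). For Usp49 the values were 9.94–19.4 and 30.6–46.3 CPM, a change of 1.50 ± 0.26 that was 0.20 and not called by library totals. Usp16 was 189–281 and 363–567 CPM, and its change of 1.08 turned to -0.21 by library totals.

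Usp3 had counts in 196 of 5964 elongating spermatid-like cells. It lay at 11.6, 9.72 and 3.67 CPM in control and 27.8, 8.96 and 7.62 CPM in stressed elongating sums, above every round sum (0.894–2.999 CPM). The change was 1.76 ± 0.60 (adjusted p = 0.0176 in edgeR), and it was not called by library totals (0.38), nor in the control libraries alone (1.24, adjusted p = 0.193). Leaving out control library 1, control library 2 or stressed library 2 also ended the call, with edgeR's adjusted p at 0.0582, 0.0543 and 0.0637. In stressed library 1 the 71 counts of Usp3 came from 5 of 84 elongating cells, 36 of them from a single cell.

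**Figure D3:**
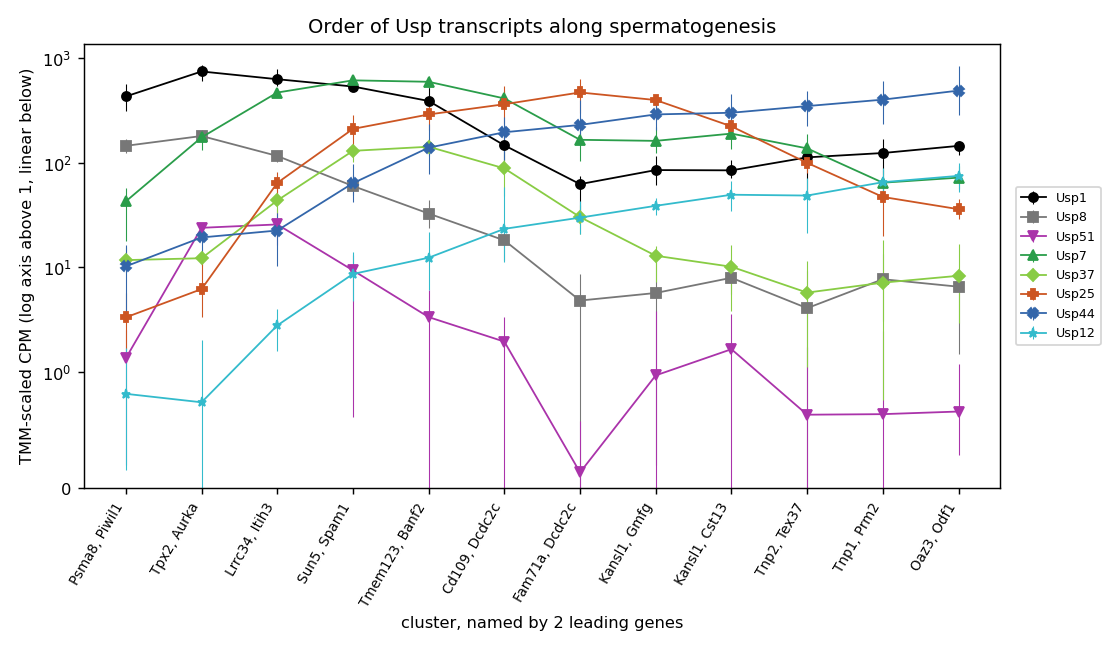
Mean TMM-scaled CPM of 8 Usp members (lines) in 12 clusters ordered by known markers from mid-meiosis (left) to the latest spermatids (right). Bars span the lowest and highest library, and the axis is logarithmic above 1 CPM and linear below. Usp1 and Usp8 are highest in the Aurka cluster, Usp7 and Usp37 crest in the round clusters, Usp25 crests in the first elongating cluster, and Usp44 and Usp12 are highest in the last. By library totals no member is highest in the last cluster.

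Usp12 and Usp46, close paralogues that are switched on by the same partner, Wdr48, rose in both steps. Usp12 lay at 0.878, 0.701 and 0 CPM in control and 0.493, 2.17 and 0.313 CPM in stressed spermatocyte-like sums. Round spermatid-like cells had 14.8, 11.5 and 7.32 and 29.9, 9.45 and 10.8 CPM, and elongating cells 83.6, 82.5 and 66.1 and 40.3, 55.8 and 64.4 CPM. The 3 classes did not overlap. The steps were 4.04 ± 0.49 and 2.40 ± 0.41 with TMM, and the second stayed at 1.07 by library totals (adjusted p = 0.0221 in edgeR). Usp46 was much sparser, at 0–0.0878, 0.446–1.99 and 2.48–12.9 CPM, with 4, 182 and 364 counts in the classes. Its changes were 4.17 ± 0.76 and 2.31 ± 0.55, while by library totals the second was 1.00 and not called (adjusted p = 0.142 in edgeR). With 4 counts in spermatocyte-like cells the first change is imprecise, and it was 5.39 without control library 1. How the authors' counting shared reads between such paralogues is not given in the sources used here.

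Of the partner Wdr48 itself, 118 ± 29.3, 84.6 ± 18.4 and 93.7 ± 23.8 CPM (SD, n = 6) were found in the 3 classes, and it was called lower in round than in spermatocyte-like cells (log2 change -0.49 ± 0.14, adjusted p = 0.00417 in edgeR). Among 18 partner genes of Usp proteins, 17 were tested: 7 were higher and 6 lower in round than in spermatocyte-like cells, and 0 higher and 2 lower in elongating than in round cells. The shares over all genes were 38.5% and 26.8%, and 24.9% and 34.5%. Fancd2, a substrate of Usp1, fell from 6.54 ± 3.09 CPM in spermatocyte-like to 0.386 ± 0.298 CPM in elongating cells (log2 change -3.95 ± 0.56). Sart3, the partner of Usp15 in splicing, changed by -3.79 ± 0.71 over the same span.

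Sart3's partner Usp15 went the opposite way. Usp15 lay at 67.4–95.2 CPM in spermatocyte-like, 388–507 in round and 947–1258 in elongating spermatid-like cells, without overlap of the classes. Its first step was 2.39 ± 0.12 (adjusted p = 6.8e-12 in edgeR). The second was 1.31 ± 0.11 relative to the bulk of genes and 0.00474 by library totals (adjusted p = 0.97 in edgeR). Usp39, a splicing factor of the family with no protease activity, lay at 3.94–13.4, 3.35–13.7 and 3.92–10.96 CPM and was not called in any step.

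Of the members at endosomes, the endoplasmic reticulum and mitochondria, all 5 were tested, and 2 rose and 3 fell from spermatocyte-like to round spermatid-like cells, where 38.5% of all genes were called higher and 26.8% lower. Usp30, which sits in the outer mitochondrial membrane and opposes the removal of mitochondria, lay at 4.799, 1.23 and 1.09 CPM (control) and 3.45, 1.82 and 2.77 CPM (stressed) in spermatocyte-like cells. In round cells it was 46.8, 43.1 and 54.7 and 46.3, 51.5 and 54.5 CPM, a rise of 4.41 ± 0.27 without overlap. Its further change of 1.27 ± 0.22 in elongating cells was -0.04 by library totals. Usp19, anchored in the endoplasmic reticulum, changed in the other direction, at 3.86–12.1, 0–1.88 and 0–0.259 CPM, with log2 changes of -3.13 ± 0.51 and -2.79 ± 0.61. Usp20 and Usp33, a pair of paralogues, parted as well: Usp20 rose by 1.44 ± 0.17 and Usp33 changed by -2.16 ± 0.79. The call of Usp33 was lost without control library 2 (adjusted p = 0.0770) and without stressed library 2 (log2 change -1.56, adjusted p = 0.0960, both in edgeR).

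Several members outside these groups also moved. Usp24 lay at 0–2.19 CPM in spermatocyte-like and 25.8–117 CPM in round sums, a rise of 5.18 ± 0.55 with stressed library 1 the highest of the round sums. Usp2, whose loss impairs male fertility in mice, was called higher in both steps (0.47 ± 0.11 and 0.86 ± 0.11), and both turned negative by library totals, at -0.26 and -0.43. Usp32 fell from 50.2 ± 14.5 to 14.4 ± 2.22 CPM (SD, n = 6, log2 change -1.76 ± 0.19). Usp10, a partner of G3bp1, changed by -2.19 ± 0.74 on 160 and 96 counts in the classes. Without control library 3 its change was -1.57 (adjusted p = 0.0494 in edgeR). The call of Usp10 was lost in the control libraries alone (adjusted p = 0.0605) and in the stressed libraries alone (adjusted p = 0.216, both in edgeR).

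The levels of rising members in spermatocyte-like cells were low but seldom 0. In the same sums, the markers of elongating spermatids added up to 4013 to 9092 CPM by library totals. In elongating spermatid-like cells they added up to 119120 to 150860 CPM on that scale, which is not the TMM scale of the Usp levels. The part of RNA from later cells in the low Usp levels of spermatocyte-like cells was not tested.

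The sex chromosomes are known to be silenced in mid-meiosis. All 5 members with counts on the X or Y chromosome had a lower mean in the mid-meiotic Psma8 cluster than in the later Aurka cluster. Usp11, which takes part in DNA repair, had 0–1.96 CPM over 4 libraries in the Psma8 cluster and 13.4–30.2 CPM over 5 libraries in the Aurka cluster. Usp51, a protease of histone H2A, had 0.196–2.51 and 21.05–26.3 CPM. Usp9x had 0–2.47 and 4.44–10.5 CPM, and its Y-linked paralogue Usp9y 0–2.197 and 4.75–22.98 CPM. In these 4 the second cluster lay above the first with no overlap of libraries. Usp26, a testis member on the X chromosome, lay at 0–0.695 and 0.113–3.504 CPM, which overlap.

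Of 38 autosomal members with at least 100 counts within the 12 clusters, 4 had the second cluster above the first with no overlap and 3 had it below. Over all genes tested, 15% had it above and 8.83% below. Among X- or Y-linked genes at large 116 of 229, 50.7%, lay above and 0 below, against 12.5% above of 10010 autosomal genes. The counts for the members were the same by library totals. This is a description of clusters with 4 and 5 libraries and carries no test. X-linked Usp27x had no count in any of the 11744 cells, which does not show that it is absent.

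After meiosis the sex-linked members parted. Usp11 and Usp9y were called higher in round than in spermatocyte-like cells, by 1.83 ± 0.29 and 1.44 ± 0.32. Usp51 lay at 18.4, 8.895 and 20.1 CPM in control and 4.92, 11.6 and 14.9 CPM in stressed round sums and at 1.34, 0.198 and 1.06 and 0, 1.75 and 2.46 CPM in elongating sums. No elongating sum reached the round range, and the fall of 3.56 ± 0.41 was the largest of the 43 members between those classes (adjusted p = 7.0e-07 in edgeR). Usp26 changed by -3.23 ± 0.92 in that step. The 12 counts of Usp26 in elongating cells came from 5 cells of 3 libraries. Usp9x changed by -1.42 ± 0.57 from spermatocyte-like to round cells (adjusted p = 0.0356 in edgeR). That call did not survive leaving out control library 1, control library 3, stressed library 1 or stressed library 2, with adjusted p from 0.0513 to 0.0904.

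**Figure D4:**
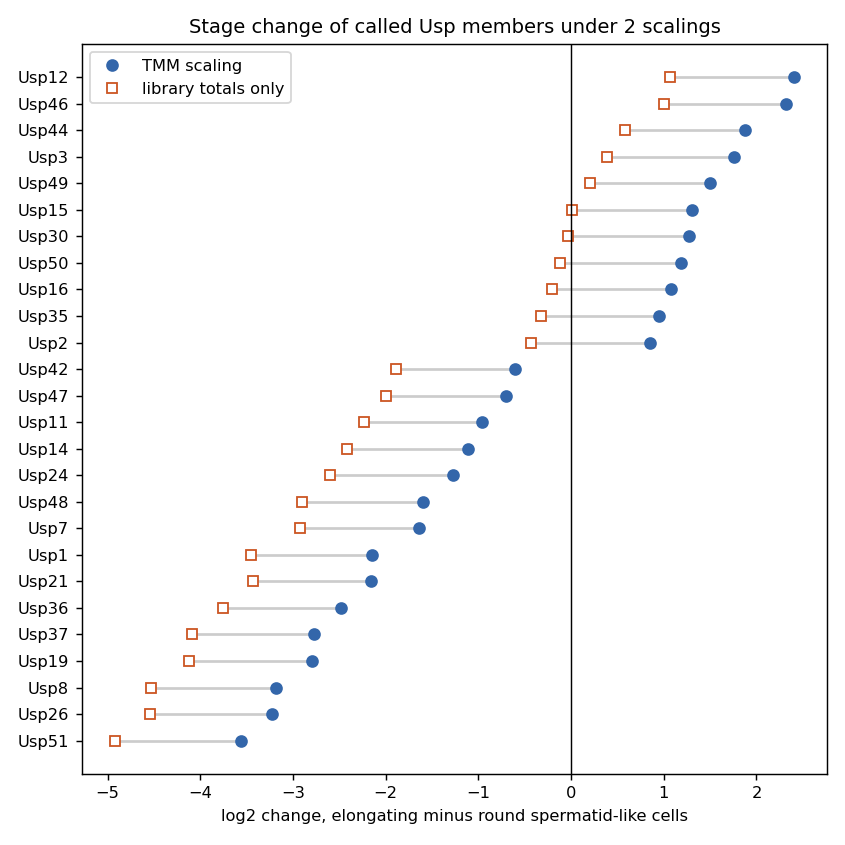
Log2 change from round to elongating spermatid-like cells of the 26 Usp members called with TMM scaling (x axis), with members on the y axis in order of that change. Filled circles use TMM scaling and open squares library totals only, and the line at 0 parts higher from lower. The squares of Usp30, Usp50, Usp16, Usp35 and Usp2 cross to the left of 0, that of Usp15 sits on it, and the 15 members that are lower stay lower.

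Of 36 deubiquitinases of other families, 33 were tested: 13 were higher and 10 lower from spermatocyte-like to round cells, and 12 were higher and 8 lower from round to elongating cells. Of all genes, 38.5% were higher and 26.8% lower in the first step, and 24.9% and 34.5% in the second. Otub2 rose from 23.8 ± 10.2 CPM in spermatocyte-like to 3225 ± 538 CPM in elongating cells (SD, n = 6). Psmd14, the deubiquitinase of the proteasome lid, fell from 29.1 ± 5.85 to 1.02 ± 0.529 CPM, the direction that Usp14 and Usp5 took over the same span. The ubiquitin gene Ubb was called higher in elongating than in spermatocyte-like cells, with a log2 change of 1.04, but its change was -0.98 by library totals. Uba1, the main ubiquitin-activating enzyme, was at 0.674 ± 0.956, 7.24 ± 1.39 and 0.933 ± 0.839 CPM in the 3 classes, highest in the round class as were Usp7 and Usp37. Of 8 immediate early genes, markers of handling and of cell activation, 5 were tested, and 1 was higher (Fosb) and 1 lower (Jun) in round than in spermatocyte-like cells. The Jun call (log2 change -1.93) was lost without stressed library 2 (-1.47, adjusted p = 0.0582 in edgeR), in the control libraries alone (-1.16, adjusted p = 0.259) and without the library block (-0.90, adjusted p = 0.420).

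The study compared stressed with control rats, and no Usp member passed that test in any class. edgeR called 0 of 40 members in spermatocyte-like, 0 of 43 in round and 0 of 36 in elongating spermatid-like cells, and 0 of 44 in whole libraries. DESeq2 called 0 in each as well. Of all genes, edgeR called 0%, 0.0163%, 0.00915% and 0.00689% in these comparisons. At an unadjusted p under 0.05 there were 3, 1, 2 and 0 members, beside 2.1%, 2.56%, 1.78% and 1.38% of all genes. The median log2 change of the members was -0.17, 0.0025, -0.02 and -0.06, beside -0.02, -0.00038, -0.02 and -0.01 over all genes. Whether the stress effect differed between classes was tested as an interaction, which called 0 of 14048 genes (419, or 2.98%, at an unadjusted p under 0.05).

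Immediate early genes were high in stressed library 1. By library totals, the 8 genes summed to 176, 44.7 and 75.3 CPM in its spermatocyte-like, round and elongating spermatid-like cells. Its TMM factors in these classes were 2.35, 1.13 and 0.690, so on the members' scale the sums compare differently across classes. In the other libraries the genes summed to 3.90 to 12.01, 1.52 to 24.3 and 1.99 to 10.15 CPM by library totals. In the stress comparison of whole libraries all 5 tested had a positive change, with a median of 2.31 and a range from 0.90 to 3.16 on the log2 scale, and in elongating spermatid-like cells 4 of 5 did, with a median of 2.17. None was called, and their part in the stress values of the Usp members was not tested.

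**Figure D5:**
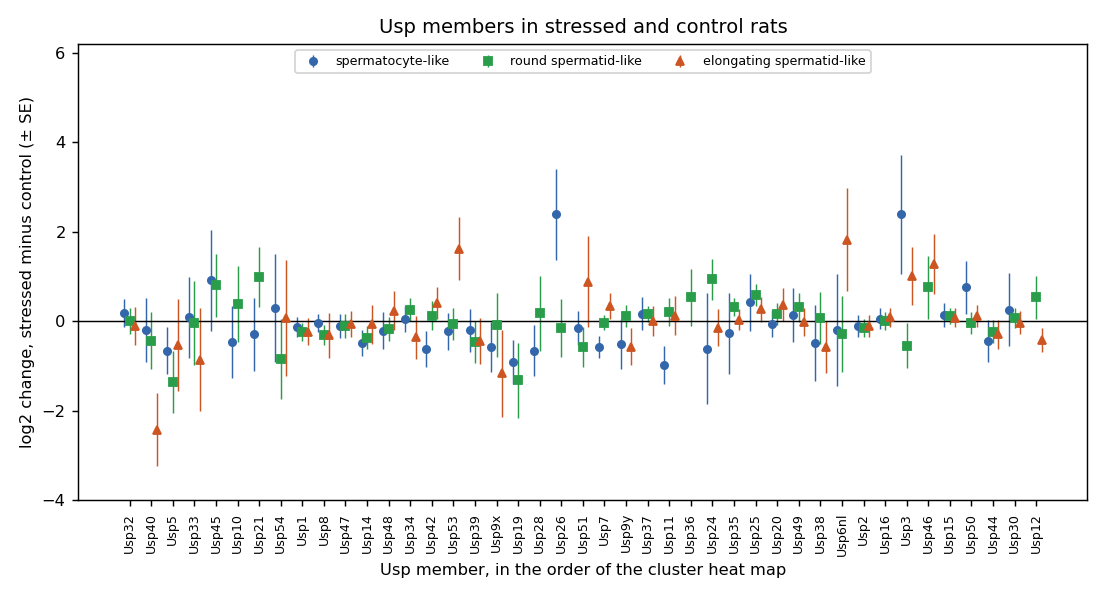
Log2 change of Usp members between stressed and control rats (y axis, 3 libraries per group, bars are SE from edgeR) in 3 germ cell classes (colour and symbol), with members in the order of the cluster heat map. Most points lie within 1 log2 unit of 0, and those farther away belong to members with few counts and wide bars, such as Usp26, Usp3, Usp40 and Usp6nl.

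In spermatocyte-like cells the smallest p-values were those of Usp26, Usp11 and Usp7. Usp11 lay at 16.4, 23.1 and 18.9 CPM in the control and 5.42, 8.84 and 14.05 CPM in the stressed libraries, so the stressed libraries were all lower (log2 change -0.98 ± 0.42, unadjusted p = 0.0396, adjusted p = 0.999 in edgeR). Usp7 lay at 143, 171 and 197 and 80.9, 135 and 114 CPM, again with every stressed library lower (-0.58 ± 0.25, adjusted p = 0.999 in edgeR). Both genes were lower in the Psma8 cluster than in the Aurka cluster, Usp7 at 42.6 and 174 CPM. The Psma8 cluster made up 29.7%, 31.8% and 15.0% of the class in the control and 41.7%, 41.0% and 21.4% in the stressed libraries. Within the Aurka cluster, Usp11 lay at 21.8, 30.2 and 19.6 CPM in the controls and at 13.4 and 17.1 CPM in stressed libraries 2 and 3. Usp7 there lay at 169.7, 197.6 and 203.1 CPM and at 169.9 and 131.6 CPM. Stressed library 1 had 14 cells of that cluster and gave no value. The part of the class's make-up in the stress values of Usp11 and Usp7 was not tested.

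Usp26, which had the smallest p-value, rested on few cells. Its levels were 1.46, 1.05 and 0.109 CPM in the control and 8.38, 2.596 and 2.25 CPM in the stressed libraries. The 17 counts of stressed library 1 came from 1 of 24 cells, and the log2 change of 2.39 ± 1.02 was 1.43 without that library. Usp3 changed by 2.39 ± 1.33 there, and its 30 counts in stressed library 1 also came from 1 cell. Of the 40 members tested, 7 had groups that did not overlap, 17.5%, where 7.5% of all genes did. Usp26 was higher and Usp28, Usp11, Usp14, Usp5, Usp7 and Usp19 were lower in the stressed libraries. By library totals, macrophage markers summed to 1049 CPM in the spermatocyte-like cells of stressed library 1, with 9 of 13 markers at a count. They summed to 23.4 to 52.2 CPM in the other libraries. Their part in these values was not tested.

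In round spermatid-like cells Usp25 had the smallest p-value. It lay at 228, 273 and 177 CPM in the control and 449, 316 and 260.1 CPM in the stressed libraries, which overlap (log2 change 0.59 ± 0.25, unadjusted p = 0.0389, adjusted p = 1.00 in edgeR). Usp24 was 25.8, 35.2 and 34.3 and 117, 38.05 and 30.2 CPM, and its change of 0.93 ± 0.46 was 0.11 without stressed library 1. Usp5 was 1.34, 1.198 and 0.667 and 0.223, 0.421 and 0.507 CPM, with all stressed libraries lower (-1.36 ± 0.69, adjusted p = 1.00 in edgeR). Groups were apart in 4 of 43 members, 9.30%, and in 7.56% of all genes. By library totals, macrophage markers summed to 312 CPM in the round spermatid-like cells of stressed library 1, beside 31.1 to 102 CPM in the other libraries. Their part was not tested.

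In elongating spermatid-like cells the smallest p was that of Usp40, at 2.22, 2.63 and 4.096 CPM in the control and 0.783, 0.358 and 0.539 CPM in the stressed libraries. Its groups did not overlap (-2.43 ± 0.81, unadjusted p = 0.0116, adjusted p = 1.00 in edgeR), and its counts were 43, 53 and 77 against 2, 9 and 7. Usp53 changed by 1.62 ± 0.70, with stressed library 3 the highest at 10.2 CPM, and by 0.87 without that library. Usp46 changed by 1.28 ± 0.68, and by 0.35 without stressed library 1. The macrophage markers of that library summed to 455 CPM in this class by library totals, against 56.1 to 83.1 CPM in the others. Groups were apart in 4 of 36 members, 11.1%, and in 7.18% of all genes.

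Over whole libraries, which mix the classes, Usp19 had the smallest p-value, at 4.35, 1.35 and 1.26 CPM in the control and 0.598, 0.818 and 1.64 CPM in the stressed libraries. The change of -1.16 ± 0.65 (unadjusted p = 0.0992, adjusted p = 1.00 in edgeR) was -0.35 without control library 1. Usp3 lay at 3.42, 5.22 and 2.56 and 14.2, 3.97 and 2.72 CPM, and its change of 0.88 ± 0.60 was -0.15 without stressed library 1. Usp46 changed by 0.80 ± 0.55. Groups were apart in 2 of 44 members, 4.55%, and in 4.92% of all genes. A p that misses the threshold does not show that the groups are alike. Counts were simulated with the same set spread for every gene, which was not estimated from these libraries. On them, the stress test in round spermatid-like cells recovered 43.0% of 200 genes changed by 2 on the log2 scale and 0.5% of 200 changed by 1. The changed genes were drawn from the more abundant genes only. These shares hold for the set spread and do not give the power of the test on these libraries.

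The 7 members under the filter were barely seen. Usp22, part of the SAGA complex that takes ubiquitin off histone H2B, had 123 counts in 38 of 11744 cells. Usp18, which removes the ubiquitin-like ISG15, had 55 counts in 15 cells. Usp43, Usp13, Usp31 and Usp29 had 15, 10, 9 and 5 counts, and Usp27x none.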

How the data were processed

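Testicular cells of 6 SD rats, 3 control and 3 stressed, were profiled with the Singleron GEXSCOPE kit, per the labels' protocols. The deposited tables hold counts per gene and cell, whole numbers that were not normalized. The labels and headers name no aligner, genome build, annotation, strand or cell filter (not given in the sources used here), and they leave unsaid if reads or molecules were counted. The normalized tables were not used. Counting error is therefore not given as an interval, and p-values rest on the spread between rats.

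The 11744 cells, all of which passed minimums of 200 genes and a limit of 20% mitochondrial counts, were clustered with leidenalg 0.10.2 (2000 variable genes, 30 components, 15 neighbours, resolution 1) in Python 3.11.15, leaving out 118 genes: every Usp member and the genes of the lists. Clusters were named "-like" from at least 3 markers. No doublet caller was run. Instead, the 5% of cells with the most counts were left out as an alternative. Counts were summed per library and class, with at least 20 cells in each sum, and tested with edgeR 4.0.16 in R 4.3.3 (TMM scaling, filterByExpr, quasi-likelihood test, Benjamini-Hochberg adjustment over all genes, threshold 0.05). Stages were compared with library as a block, and stress without a block. DESeq2 1.42.0 was an alternative. The chi-square per degree of freedom between libraries of the same group was 162.9 to 620.5, so no library was a copy of another in its group. Libraries of different groups were not compared in this way. On simulated counts the stage test recovered 94.5% of 200 genes changed by 2 on the log2 scale and 4.5% of 200 changed by 1. The simulated spread was set to the same value for every gene and not estimated from these libraries. The changed genes were drawn from the more abundant genes only. On the real counts the stage test called changes under 1, such as that of Usp2 (0.47, adjusted p = 0.0015 in edgeR). The recovered shares therefore do not give the power of the tests on these libraries.

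Named were the 8 called members with the largest change in each direction for both stage steps, up to 3 members with the smallest p per stress comparison, and up to 4 genes per list, 1 of which is not reported here. Other members are given as counts or where a role group is described, and some were chosen after their values were seen. The members and the lists were chosen with earlier results of these data known. Alternatives were DESeq2, RLE factors, library totals, no filter, other blocks, single groups, other clusterings and leaving out each library. The unnamed cluster was also counted as elongating spermatid-like in a further run. How copies and overlapping genes were counted is not given: Usp12 and Usp46, and Usp9x and Usp9y, are near copies, and 11 members overlap another protein-coding gene in RefSeq's annotation.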

Additional observations from a re-analysis of the deposited data

How the results depend on the processing

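The counts of called members depended most on the scaling. By library totals, the members lower in round than in spermatocyte-like cells went from 13 to 23, those higher in elongating than in round cells from 11 to 2 and those lower from 15 to 30, and between spermatocyte-like and elongating cells 18 higher became 10 and 19 lower became 29. In the stressed libraries alone, 4 were lower in the first comparison and 8 in the second. Leaving out 1 library gave 17 to 18 higher and 11 to 14 lower, then 9 to 12 and 14 to 18, and then 17 to 19 and 19 to 20. All other counts stayed within 1.5 times. By library totals, signs turned for 5 called members between round and elongating cells: Usp30 (-0.037), Usp50 (-0.12), Usp16 (-0.21), Usp35 (-0.33) and Usp2 (-0.43). From spermatocyte-like to elongating cells they turned for 7 called members, Usp11 (-1.14), Usp16 (-0.87), Usp2 (-0.69), Usp20 (-0.67), Usp37 (-1.56), Usp38 (-0.90) and Usp7 (-1.36), and for Ubb (-0.98), and from spermatocyte-like to round cells for 1, Usp2 (-0.26). The stress change of Usp3 over whole libraries turned to -0.15 without stressed library 1 and ranged up to 1.27 without another library. The cause was not tested. No stress comparison called a member under any alternative run.

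With the replicate number as a replicate block, 0 members were called for stress in every class and over whole libraries. For rats with the same number, the deviations from the group means of numbers 1, 2 and 3 correlated by 0.08, 0.04 and 0.30 in spermatocyte-like cells. The correlations were -0.11, -0.05 and 0.27 in round and -0.04, -0.08 and 0.12 in elongating cells. Over whole libraries they were -0.19, 0.02 and 0.25. Number 3 was positive throughout, and 3 libraries per group cannot settle whether a shared number marks a pair. Stressed library 1, with 24 spermatocyte-like cells, had the fewest cells behind each sum and so the least precise values.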

Other observations

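Outside the 3 germ cell classes, 22 spermatogonia-like cells and the unnamed cluster of 222 cells held too few cells in most libraries for a test, and their values are summed over libraries and not TMM-scaled. In the spermatogonia-like cells Usp1 lay at 546 CPM, Usp7 at 506 CPM and Usp26 at 136 CPM, on 84 counts. Usp22 lay at 102 CPM there, with 63 of its 123 counts in all cells. In the unnamed cluster, 182 of whose cells were from stressed library 1, Usp15 lay at 589 CPM, Usp2 at 371 CPM and Usp16 at 300 CPM.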
